A study of Mus musculus with 6 samples.

Results

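Fibroblast growth factor (FGF) genes and the genes that restrain the ERK pathway were described in mouse induced pluripotent stem cells (iPSCs) with and without serum response factor (SRF). The set comprised 40 genes of 24421 gene entries in the table, chosen by name for their place in the pathway. No measured value was used in the rule, but earlier results of these data were known when the set was chosen. All 40 had a row, and 39 passed the filter on low counts. Fgf9 did not pass it. The SRF KO (knockout) iPSCs carry the deleted allele on both copies (SRFΔ/Δ), and the WT iPSCs carry the intact conditional allele on both (SRFf/f). Both were grown in serum-containing medium, and 3 bulk RNA-seq libraries were made of each. Whether replicates came from different clones or dishes is not in the labels, so p-values measure only the spread between these libraries, which may be technical.

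FGF ligands are secreted proteins that bind receptor tyrosine kinases together with heparan sulfate. The receptors pass the signal through the adaptors FRS2, GRB2, SHP2 (gene Ptpn11) and SOS1 to RAS and on to the ERK kinases. In mouse pluripotent cells FGF4 is the main autocrine ligand, and FGF-ERK signalling is known to move cells out of the naive state and, in the embryo, towards primitive endoderm. Active ERK induces genes that restrain it, among them Sprouty and Spred proteins and dual-specificity phosphatases, as well as the ETS transcription factors Etv4 and Etv5. ERK also acts on SRF itself through ternary complex factors, ETS proteins that bind beside SRF at immediate-early genes.

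Total counts were between 26321602 and 36680156 per library, and the 40 genes held between 0.244% and 0.269% of all gene counts. The targeted gene, Srf, was at 3.97 ± 0.707 CPM in the knockout and 34.5 ± 4.14 CPM in WT (SD, n = 3; log2 -3.12, SE 0.13, edgeR adjusted p 8.10e-09). CPM here are counts relative to the library total, after TMM scaling. On the second principal component WT replicate 2 lay lowest at -15.6, followed by SRF KO replicate 2 at -6.20. The other libraries were at 2.63 to 10.7. Whether the replicate numbers mark a shared batch was not settled. Of 13 pluripotency markers 7 fell, 2 rose and 4 did not pass, with a summed level of 3607 to 3645 CPM in the knockout libraries and 4369 to 4684 CPM in the WT libraries. Pou5f1 was at 773 ± 11.3 CPM against 818 ± 52.4 CPM (SD, n = 3) and did not pass, while Nanog fell by 0.79 and Dppa3 by 2.08 on the log2 scale. Markers of other cell types also moved with the groups. All 16 tested endoderm markers of 17 listed rose, with a summed level of 3512 to 3737 CPM in the knockout libraries and 591 to 621 CPM in the WT libraries. Over all genes tested, 21.2% rose. Some of the markers, such as Ttr, Hnf4a and Apoa1, passed the filter on low counts only through the knockout libraries. They could thus be called only as rises. Ttr was at 0 counts in every WT library, and Afp had at most 3 counts in any library. All 13 fibroblast markers rose too, with a summed level of 1223 to 1481 CPM against 596 to 674 CPM and none at 0. Their part in the results was not tested, and in bulk RNA a change in the number of cells of a type and a change in RNA per cell cannot be told apart.

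Of the 39 genes tested, 14 rose and 14 fell in the knockout, with adjusted p-values below 0.05 by edgeR's quasi-likelihood test, which is 35.9% in each direction. Over all 14778 genes tested, 21.2% rose and 21.3% fell, together 42.4%. The counts given below by role and by gene list are to be read against these shares. Because well-counted genes are called more easily, genes with a mean of at least 50 counts were also counted alone. Of these 34 FGF and feedback genes 25 were called, against 43.8% of all such genes. The median log2 fold change was -0.0018 over the 39 genes and -0.013 over all genes, so that the set had no common direction. The groups did not overlap in 30 of the 39 (76.9%), with 16 above and 14 below WT, against 52.7% of all genes, 26.2% above and 26.5% below. Leaving out SRF KO replicate 1 gave 13 rises and 9 falls, the fewest of the 6 fits that left out a library. Without WT replicate 2, 28 genes were called, of which 27 were shared, with Fgf1 lost and Dusp2 gained. Changes of at least 1 on the log2 scale with an edgeR adjusted p below 0.05 were confined to 5 of the 39 genes. These were the rises of Fgfr4, Fgf7, Fgf10, Fgf3 and Fgf5. Over all genes tested, 7.29% met both conditions. The plot of fold changes by role shows that most roles held genes that moved both ways.

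**Figure D1:**
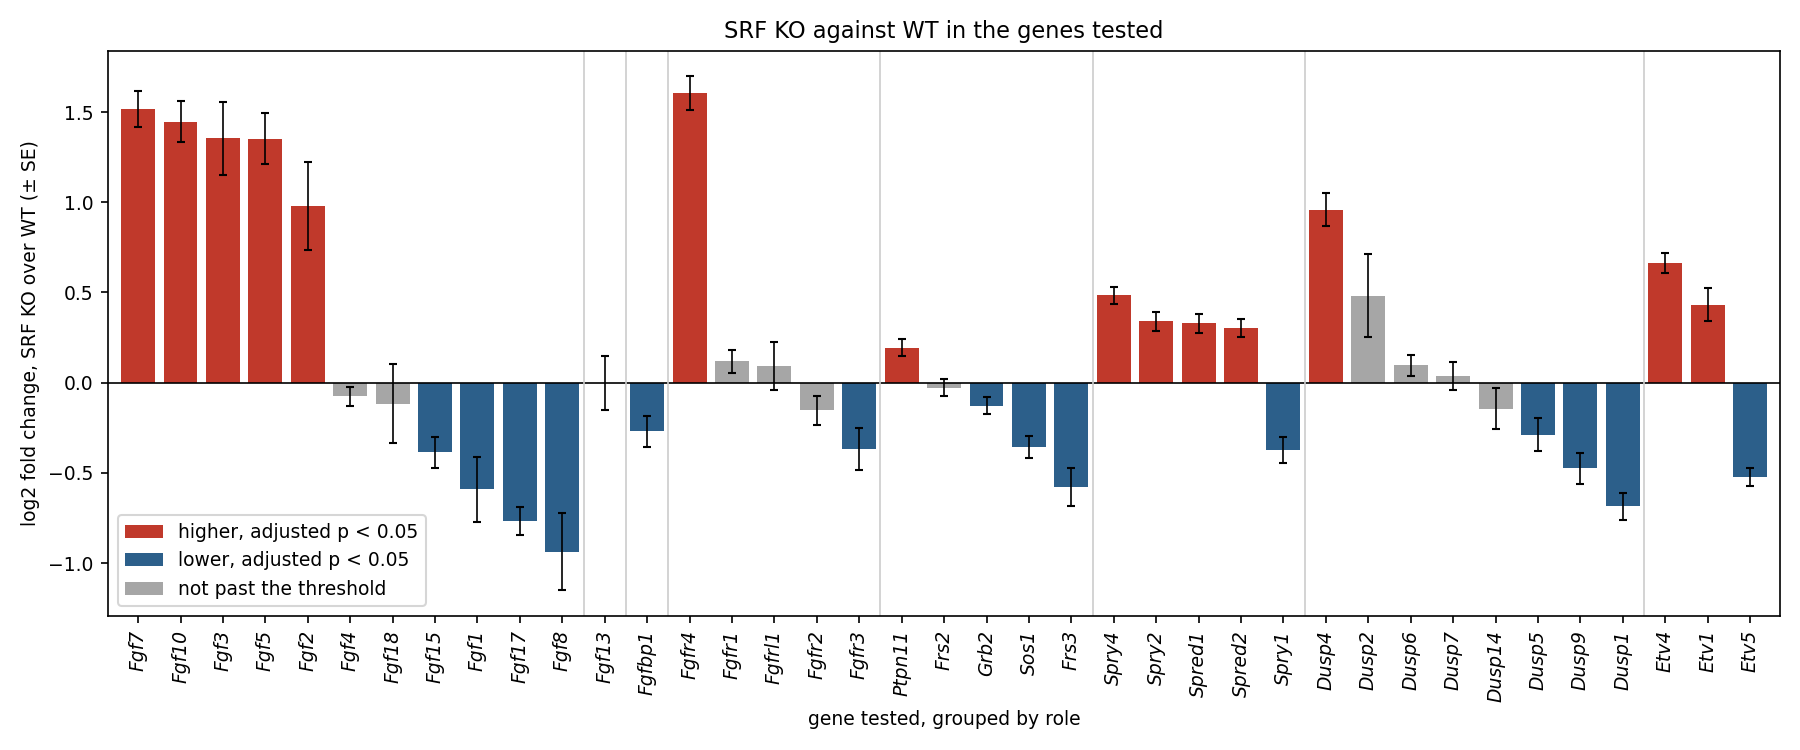
Log2 fold change of SRF KO over WT for the 39 tested genes, grouped by role with grey lines between roles (bars, fitted values; error bars, SE). Red bars rose, blue bars fell and grey bars did not pass the threshold; among the Sprouty and Spred genes 4 of 5 rose, while ligands and phosphatases moved both ways.

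The ligands split by direction, with 5 rises, 4 falls and 2 that did not pass among 11 tested. Fgf4 was by far the most abundant, and it was at 159.6, 176 and 158 CPM in knockout replicates 1 to 3 and at 174, 171 and 175 CPM in the WT libraries. The groups overlapped, and its log2 change of -0.08 (SE 0.05) missed the threshold (edgeR adjusted p 0.290). Per kilobase of exon, Fgf4 made up 66.3% ± 1.16 of all ligand counts in the knockout and 69.7% ± 0.714 in WT (SD, n = 3).

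Fgf7, a ligand that mesenchymal cells make for epithelia, was at 14.2, 15.8 and 16.7 CPM in the knockout libraries and at 5.03, 6.03 and 5.30 CPM in the WT libraries. Every SRF KO library lay above every WT library, a rise of 2.87-fold (log2 1.52, SE 0.10, edgeR adjusted p 4.34e-07). Fgf10, a close relative of Fgf7 with the same receptor preference and a mesenchymal source in organ buds, was at 29.5, 33.2 and 27.9 CPM against 9.47, 13.4 and 10.6 CPM. This was a rise of 2.73-fold without overlap (log2 1.45, SE 0.11, edgeR adjusted p 1.96e-06). The 13 fibroblast markers rose by 0.81 to 1.46 on the log2 scale, so that Fgf10 lay at the upper end of their range and Fgf7 just above it. Whether the rises of these ligands came with fibroblast-like RNA was not tested.

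Fgf5, a marker of the post-implantation epiblast, was at 5.54, 4.99 and 4.53 CPM in the knockout and at 1.77, 2.22 and 1.95 CPM in WT. It rose by 1.35 on the log2 scale (SE 0.14, edgeR adjusted p 1.68e-05), with all SRF KO libraries above all WT libraries. The other primed epiblast genes did not move with it as a group. Of 6 tested, Otx2 and Sox3 rose (0.51 and 0.57), Zic2 and Lef1 fell (-0.96 and -0.82), and Pou3f1 and Dnmt3b were at -0.15 and 0.04 without passing.

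Fgf3 and Fgf2 rose from low levels. Fgf3 had 57, 66 and 58 counts in the knockout and 33, 16 and 29 in WT, and its log2 change was 1.35 (SE 0.20, edgeR adjusted p 0.000264). Fgf2, a heparin-binding ligand without a classical secretion signal, had 51, 51 and 72 counts in the knockout and 30, 41 and 25 in WT. Its log2 change was 0.98 (SE 0.24, edgeR adjusted p 0.00731). Of the annotated exons of Fgf2, 640 bases overlap exons of Nudt6 on the opposite strand. Nudt6 was at 1.15 CPM in the knockout and 1.32 CPM in WT. How reads of the shared bases were assigned is not known, and their part in the counts of Fgf2 was not tested.

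The 4 falls concerned Fgf17, Fgf15, Fgf8 and Fgf1. Fgf17, which together with Fgf8 belongs to a subfamily used in early embryonic patterning, was at 13.0, 11.8 and 12.4 CPM in the knockout and at 20.8, 19.9 and 22.4 CPM in WT. It fell by 0.77 on the log2 scale (SE 0.08, edgeR adjusted p 1.23e-05) with no overlap. Fgf8 had 25, 22 and 17 counts in the knockout and 51, 42 and 42 in WT, a log2 change of -0.94 (SE 0.21, edgeR adjusted p 0.00425). Fgf15, the mouse counterpart of human FGF19, fell by 0.39 (SE 0.09) from 9.43 ± 0.166 to 7.21 ± 0.303 CPM (SD, n = 3). Its exons share 761 bases with an annotated antisense gene.

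Fgf1, which binds all FGF receptors, fell by 0.59 on the log2 scale (SE 0.18, edgeR adjusted p 0.0211). This call was lost when knockout replicate 1 (-0.59), knockout replicate 3 (-0.55) or WT replicate 2 (-0.42) was left out. Fgf18 was at 1.06 ± 0.272 CPM in the knockout and 1.16 ± 0.0369 CPM in WT (SD, n = 3), and it did not pass the threshold. Fgf9 had 6, 5 and 3 counts in the knockout and 4, 3 and 0 in WT, too few to compare at this depth, where 3 counts are worth 0.0828 to 0.117 CPM. Fgf13 encodes an intracellular FGF homologue that binds sodium channels rather than FGF receptors, and it was at 2.82 ± 0.182 CPM in the knockout and 2.85 ± 0.404 CPM in WT (SD, n = 3).

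Of the FGF ligand genes outside the set, 1 of 9 had enough counts to be tested. This was Fgf11, an intracellular homologue like Fgf13, and it fell from 4.54 ± 0.328 to 2.29 ± 0.0818 CPM (SD, n = 3; log2 -0.98, SE 0.13, edgeR adjusted p 8.29e-05).

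Fgf3, Fgf4 and Fgf15 lie next to each other on chromosome 7, at chr7:144838083-144844436, chr7:144847367-144865243 and chr7:144896531-144900953 (GENCODE M21, GRCm38). The cell cycle gene Ccnd1 follows them. The 4 neighbours did not move as a block, with log2 fold changes of 1.35, -0.08, -0.39 and 0.42 in this order, of which that of Fgf4 did not pass the threshold.

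**Figure D2:**
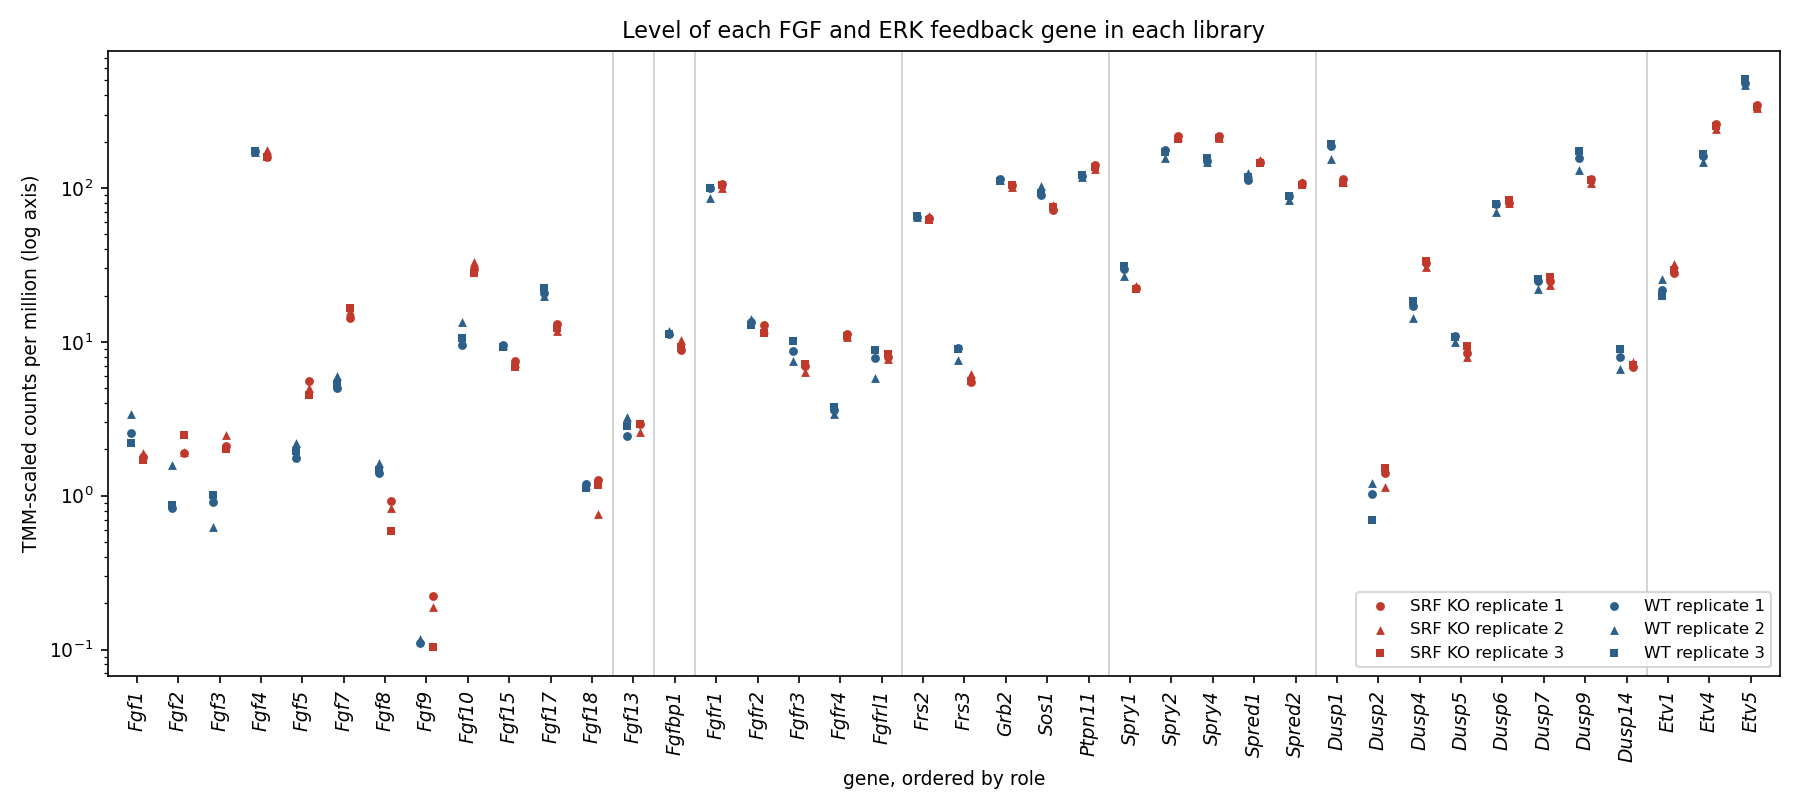
Level of the 40 genes in each library, as TMM-scaled CPM on a log axis, ordered by role (points, libraries; red, SRF KO; blue, WT; shapes, replicates; the WT replicate 3 value of Fgf9 is 0 and is not drawn). Fgf4 stands far above the other ligands in both groups, and Etv5 is the highest gene in every library.

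Among the receptors, Fgfr4 rose and Fgfr3 fell. Fgfr4 was at 11.2, 10.7 and 10.96 CPM in the knockout libraries and at 3.62, 3.42 and 3.76 CPM in the WT libraries. This was the largest rise of the set, 3.04-fold (log2 1.60, SE 0.09, edgeR adjusted p 1.59e-07), and the replicates of each group lay close together. Fgfr3 was at 6.99, 6.35 and 7.16 CPM in the knockout and at 8.78, 7.50 and 10.1 CPM in WT, with a log2 change of -0.37 (SE 0.12, edgeR adjusted p 0.0247). The call of Fgfr3 was lost without any of SRF KO replicates 1 to 3 (-0.38, -0.31 and -0.40) and without WT replicate 1 (-0.37) or 3 (-0.26).

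Fgfr1, the main receptor of pluripotent cells, was at 105, 101 and 104 CPM in the knockout and at 99.3, 85.6 and 100.5 CPM in WT. The SRF KO libraries lay just above the WT libraries, and the log2 change of 0.12 (SE 0.06) missed the threshold (edgeR adjusted p 0.156; 0.0377 with a replicate block). Fgfr2, the receptor that carries the splice form bound by Fgf7 and Fgf10, was at 12.9, 12.05 and 11.4 CPM in the knockout and at 13.45, 14.1 and 12.8 CPM in WT. Its groups overlapped, and its log2 change of -0.15 (SE 0.08) did not pass. Fgfrl1, a receptor without a kinase domain, was at 8.05 ± 0.276 CPM in the knockout and 7.51 ± 1.56 CPM in WT (SD, n = 3) and did not pass.

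The make-up of the receptor pool was compared as the share of each of Fgfr1 to Fgfr4 in their summed counts per kilobase of exon. Such shares need no scaling of the libraries. Fgfrl1 was left out of this pool. Its level was 2.89 CPM per kilobase in the knockout and 2.70 in WT, beside 3.10 and 1.02 for Fgfr4. Fgfr1 held 66.7% ± 0.257 of the pool in the knockout and 73.0% ± 0.998 in WT (SD, n = 3). Fgfr4 held 19.7%, 19.8% and 19.7% in the knockout libraries, against 7.50%, 8.02% and 7.65% in WT. Among Fgfr1 to Fgfr4, Fgfr4 was thus the lowest in WT in this measure and the second in SRF KO. Fgfr2 went from 9.95% ± 1.25 to 7.48% ± 0.383 and Fgfr3 from 9.30% ± 0.789 to 6.08% ± 0.273 (SD, n = 3), and in WT the levels of Fgfr2 and Fgfr3 did not differ beyond their spread. Of the annotated exons of Fgfr2, 314 bases are shared with Ctbp2 on the same strand. Ctbp2 was at 379 CPM in the knockout and 394 CPM in WT. Those of Fgfr3 share 998 bases with an annotated gene on the opposite strand. How reads of these bases were assigned is not known, which limits the shares of both receptors. Counts not divided by length gave Fgfr4 8.23% in the knockout and 2.98% in WT.

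**Figure D3:**
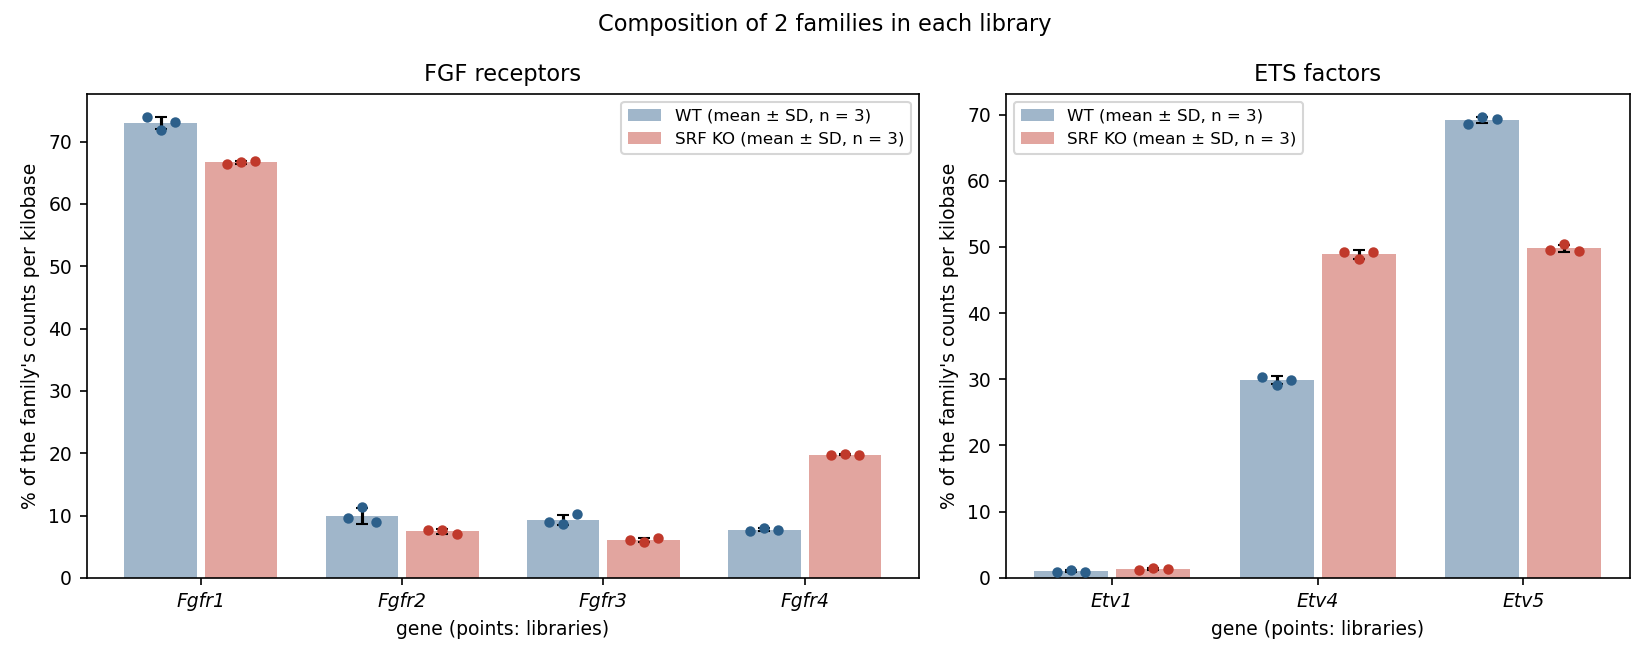
Share of each of the FGF receptors Fgfr1 to Fgfr4 (left, Fgfrl1 left out) and each ETS factor (right) in the summed counts per kilobase of its family, in percent (bars, mean; error bars, SD, n = 3; points, libraries; blue, WT; red, SRF KO). The share of Fgfr4 is 19.7% in SRF KO against 7.72% in WT, and Etv4 and Etv5 are nearly level in SRF KO while Etv5 leads in WT.

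Most co-receptor and heparan sulfate genes that passed the test rose. Of 24 listed, 22 were tested, of which 13 rose, 1 fell and 8 did not pass, and their median log2 fold change was 0.31. Klb, which encodes beta-Klotho, the co-receptor that FGFR4 uses for the hormone-like FGFs, was at 13.5 ± 0.710 CPM in the knockout and 0.430 ± 0.109 CPM in WT (SD, n = 3; log2 4.93, SE 0.15, edgeR adjusted p 5.95e-10). In WT, Klb had 19, 8 and 13 counts, and it passed the filter on low counts only through the knockout libraries. It could thus be called only as a rise. Flrt3, a membrane protein that binds FGF receptors, rose 4.59-fold (edgeR adjusted p 3.20e-09). The glypican Gpc4 rose by 0.85 on the log2 scale (SE 0.05, edgeR adjusted p 2.57e-07). The tested endoderm markers had a median log2 fold change of 3.64, and some of them passed the filter only through the knockout libraries. The part of the endoderm markers in the rises of Fgfr4, Klb and Flrt3 was not tested. The carrier gene Fgfbp1, whose protein frees FGFs from the matrix, fell by 0.27 (SE 0.09, edgeR adjusted p 0.0261), a call that was lost when knockout replicate 1 (-0.22), knockout replicate 3 (-0.25) or WT replicate 1 (-0.28) was left out.

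Among the 5 adaptors there were 1 rise, 3 falls and 1 that did not pass. Frs2, the docking protein that links FGF receptors to the pathway, was at 64.0 ± 1.64 CPM in the knockout and 65.2 ± 0.117 CPM in WT (SD, n = 3), a log2 change of -0.03 (SE 0.05) that did not pass. Frs3, its paralog, was at 5.50, 6.19 and 5.53 CPM against 9.06, 7.58 and 8.99 CPM and fell by 0.58 on the log2 scale (SE 0.11, edgeR adjusted p 0.00105). Its exons share 509 bases with Frs3os on the opposite strand and 69 with Tomm6os on the same strand. Frs3os was at 0.814 CPM in the knockout and 1.10 CPM in WT. Sos1, which loads RAS with GTP, was at 72.2, 77.1 and 75.0 CPM against 90.5, 104 and 93.1 CPM and fell by 0.36 (SE 0.06, edgeR adjusted p 0.000602). Neither Frs3 nor Sos1 overlapped between the groups.

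Ptpn11 was at 140.2, 133 and 136 CPM in the knockout and at 119, 117 and 122 CPM in WT, and it rose by 0.19 on the log2 scale (SE 0.05, edgeR adjusted p 0.00651; 0.0502 without SRF KO replicate 1, where the value was 0.17). Grb2 lay at the threshold, with a log2 change of -0.13 (SE 0.05, edgeR adjusted p 0.0442). Its call was lost without SRF KO replicate 1, 2 or 3 (-0.14, -0.10 and -0.13) and without WT replicate 1 (-0.12) or 3 (-0.14). It was also lost with RLE size factors (edgeR adjusted p 0.0667), total counts (0.145), no filter on low counts (0.0856) and DESeq2 (0.112). Further down, 1 of 19 genes of the RAS-ERK cascade rose, 6 fell and 12 did not pass, while 42.4% of all genes were called. Gab1, a docking protein beside GRB2, fell by 0.53 and Map2k1, which encodes a kinase that activates ERK, by 0.25 on the log2 scale (edgeR adjusted p 4.12e-06 and 0.00419).

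Of the 16 Sprouty, Spred, phosphatase and ETS factor genes, which ERK signalling is known to induce or which restrain it, 7 rose, 5 fell and 4 did not pass. The Sprouty and Spred genes mostly rose. Spry4, a membrane-associated inhibitor of RAS activation, was at 216, 210.1 and 212 CPM in the knockout libraries and at 151, 148 and 158 CPM in the WT libraries. It rose 1.40-fold without overlap (log2 0.48, SE 0.05, edgeR adjusted p 9.54e-06). Spry2 was at 217, 215 and 207 CPM against 176, 158 and 171 CPM and rose by 0.34 (SE 0.05, edgeR adjusted p 0.000393).

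Spry1 went the other way, at 22.5, 23.1 and 22.0 CPM in the knockout and 29.8, 26.8 and 31.0 CPM in WT, a log2 change of -0.37 (SE 0.07, edgeR adjusted p 0.00138). Its exons share 710 bases with an annotated gene on the opposite strand. The ratio of Spry4 to Spry1 per kilobase was 5.77 ± 0.190 in the knockout and 3.19 ± 0.160 in WT (SD, n = 3). Spred1 and Spred2, which bring neurofibromin to RAS, rose by 0.33 (SE 0.05) and 0.30 (SE 0.05), from 118 ± 5.86 to 148 ± 4.03 CPM and from 86.9 ± 2.85 to 107 ± 2.41 CPM (SD, n = 3). Neither overlapped between the groups. Among 15 further negative regulators tested, 2 rose, 1 fell and 12 did not pass. These were Spred3 (log2 0.57, edgeR adjusted p 0.000943), the phosphatase Dusp3 (0.27, edgeR adjusted p 0.0241) and the FGF receptor antagonist Il17rd (-0.22, edgeR adjusted p 0.00341).

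The dual-specificity phosphatases, which remove phosphate from ERK and related kinases, had 1 rise, 3 falls and 4 genes that did not pass. Dusp4, a nuclear phosphatase, was at 32.7, 30.4 and 33.7 CPM in the knockout and at 17.1, 14.2 and 18.4 CPM in WT. It rose 1.94-fold with no overlap (log2 0.96, SE 0.09, edgeR adjusted p 7.53e-06). Dusp1, a nuclear phosphatase and immediate-early gene, was at 115, 109 and 108 CPM against 186, 154 and 192 CPM. It fell by 0.69 on the log2 scale (SE 0.08, edgeR adjusted p 2.59e-05), and WT replicate 2 was the lowest of the WT libraries. Dusp9, a cytoplasmic phosphatase on the X chromosome, was at 114, 107 and 113 CPM against 158, 131 and 175 CPM, and it fell by 0.48 (SE 0.09, edgeR adjusted p 0.000929), again with WT replicate 2 lowest in its group. Klhl13, another X-linked gene known for its effect on the differentiation of pluripotent cells, fell by 2.97 on the log2 scale, while the 512 tested genes of the X chromosome had a median of -0.0039. Xist, also on the X chromosome, rose by 0.90 (SE 0.07, edgeR adjusted p 2.16e-06).

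Dusp6, the cytoplasmic phosphatase that is specific for ERK and a common readout of FGF signalling, was at 79.3, 80.3 and 83.4 CPM in the knockout and at 78.1, 70.1 and 78.9 CPM in WT. The SRF KO libraries lay just above the WT libraries, but the log2 change of 0.10 (SE 0.06) missed the threshold (edgeR adjusted p 0.1997). Its cytoplasmic relative Dusp7 was at 24.9 ± 1.56 CPM in the knockout and 24.2 ± 1.87 CPM in WT, and Dusp14 at 7.13 ± 0.301 and 7.87 ± 1.15 CPM (SD, n = 3), neither past the threshold. Dusp2 had between 30 and 44 counts in the knockout and between 20 and 37 in WT. Its log2 change of 0.48 (SE 0.23) did not pass, but was 0.64 and passed without WT replicate 2.

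Dusp5, a nuclear phosphatase that ERK induces and that binds ERK, was at 8.47, 7.97 and 9.44 CPM in the knockout and at 10.9, 10.03 and 10.7 CPM in WT. The groups did not overlap, and it fell by 0.29 on the log2 scale (SE 0.09, edgeR adjusted p 0.0242). The call was lost without SRF KO replicate 1 (-0.28) or 2 (-0.23) and without WT replicate 1 (-0.26) or 3 (-0.28), and also with total counts (edgeR adjusted p 0.0531) and DESeq2 (0.0670). Of its annotated exons, 547 bases overlap an antisense gene. SRF binds the CArG box, which is CC, then 6 letters that are A or T, then GG, and promoter windows were searched for it on both strands. RefSeq windows of 300 bases (GRCm38.p6, from 250 bases before to 50 after the start) were found for 31 of the 40 genes. Dusp5 was the only one of the 31 with a match, and it had 2, side by side, beginning 82 and 72 bases before the start. Of all 32851 windows, 1.63% held a match. Of the tested genes with a window in the RefSeq table, which is not complete, Dusp5 and Srf itself were the only ones with 2 matches in 1 window. Both windows are printed to compare the boxes, together with that of Dusp1, which fell further than Dusp5 and held no match. Capitals mark CArG boxes and, in Srf, also the ETS site CCGGAAG.
Dusp5, chr19:53528895-53529194, + strand: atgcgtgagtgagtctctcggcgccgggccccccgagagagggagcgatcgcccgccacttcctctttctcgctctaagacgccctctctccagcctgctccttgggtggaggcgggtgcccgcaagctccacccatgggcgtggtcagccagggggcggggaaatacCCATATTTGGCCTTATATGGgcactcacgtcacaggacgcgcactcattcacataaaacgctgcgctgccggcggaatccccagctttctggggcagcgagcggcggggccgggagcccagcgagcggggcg
Srf, chr17:46556113-46556412, - strand: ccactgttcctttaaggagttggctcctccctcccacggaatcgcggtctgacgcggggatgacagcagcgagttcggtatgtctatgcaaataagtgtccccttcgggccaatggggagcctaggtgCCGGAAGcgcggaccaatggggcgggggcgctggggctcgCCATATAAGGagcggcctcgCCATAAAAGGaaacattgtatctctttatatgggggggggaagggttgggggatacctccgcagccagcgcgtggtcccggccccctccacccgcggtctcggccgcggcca
Dusp1, chr17:26508423-26508722, - strand: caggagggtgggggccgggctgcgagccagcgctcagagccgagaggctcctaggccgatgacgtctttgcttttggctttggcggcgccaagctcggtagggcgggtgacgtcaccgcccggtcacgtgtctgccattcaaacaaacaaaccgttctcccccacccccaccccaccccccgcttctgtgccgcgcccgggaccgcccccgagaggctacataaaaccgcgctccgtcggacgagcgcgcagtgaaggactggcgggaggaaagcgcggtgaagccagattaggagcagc

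A match is a description of the letters and not a measured binding site. Of 165 tested genes with a CArG box in a window, 26.1% fell and 24.8% rose, against 21.4% and 20.8% of the 10970 tested genes with a window. The ETS site CCGGAAG was found in the windows of Fgfrl1, Frs2 and Ptpn11, and in 8.86% of all windows. The pattern TGANTCA, a loose form of the AP-1 site that allows any middle letter, was found in 7.81% of all windows. Among the set it was found only in a window of Fgf13, as TGAATCA. The 3 motifs were searched on both strands and did not overlap each other in these windows.

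The ETS factors diverged. Etv4 was at 259, 240.3 and 254 CPM in the knockout and at 162, 148 and 166 CPM in WT, a rise of 1.58-fold with no overlap (log2 0.66, SE 0.06, edgeR adjusted p 3.52e-06). Etv5 was at 344, 333 and 337 CPM against 483, 466 and 510 CPM, and it fell by 0.53 on the log2 scale (SE 0.05, edgeR adjusted p 7.66e-06), also with no overlap. Etv4 and Etv5 are close relatives that FGF-ERK signalling commonly induces together.

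The ratio of Etv5 to Etv4 per kilobase was 1.004, 1.05 and 1.004 in the knockout libraries and 2.26, 2.38 and 2.32 in the WT libraries. The replicates of each group lay within a narrow range, and since both counts come from the same library this ratio does not depend on scaling. Per kilobase, Etv5 held 49.8% ± 0.547 of the ETS factor pool in the knockout and 69.2% ± 0.503 in WT (SD, n = 3). Etv1, the third member of this subfamily, was at 28.2, 32.2 and 29.5 CPM against 21.6, 25.4 and 19.8 CPM and rose by 0.43 on the log2 scale (SE 0.09, edgeR adjusted p 0.00286). Its share of the pool was between 0.829% and 1.504% in all 6 libraries.

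Other genes that ERK signalling can induce also went both ways, with 7 rises, 6 falls and 1 that did not pass among 14. The immediate-early genes Fos and Egr1, which carry SRF sites in their promoters, were at 42.2 ± 2.35 and 50.7 ± 3.55 CPM in the knockout and at 321 ± 10.2 and 248 ± 23.0 CPM in WT (SD, n = 3). Myc went from 41.0 ± 0.378 to 87.8 ± 1.39 CPM (SD, n = 3; log2 1.10, SE 0.05, edgeR adjusted p 1.56e-08). The falls of Fos and Egr1 (log2 -2.93 and -2.29, edgeR adjusted p 1.16e-11 and 1.15e-09) stood beside rises of Spry2, Spry4, Dusp4 and Etv4 and falls of Spry1, Dusp1, Dusp5, Dusp9 and Etv5.

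Per kilobase of exon, the levels of the feedback genes, the ETS factors and the ligand Fgf4 could be ordered within each group. In WT, Etv5 led at 119 ± 5.32 CPM per kilobase, followed by Spry2 (80.7 ± 4.57). Dusp9 (56.8 ± 8.08), Fgf4 (54.3 ± 0.737), Dusp1 (53.6 ± 6.21) and Etv4 (51.1 ± 3.09) came next and did not differ beyond their spread (SD, n = 3). In SRF KO, Spry2 led at 102 ± 2.58, followed by Etv5 at 82.4 ± 1.34 and Etv4 at 80.9 ± 3.13, which did not differ beyond their spread (SD, n = 3). Fgf4 at 51.5 ± 3.18, Spry4 at 44.8 ± 0.651 and Dusp9 at 40.9 ± 1.31 came after them.

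The positions of the genes were compared with the fold changes, a comparison chosen after the data were seen. Over 17 autosomes the median log2 fold change of all tested genes of a chromosome was between -0.071 and 0.014. Among the autosomes, chromosomes 8 and 17 stood apart, at 0.134 over 754 genes and -0.113 over 711 genes. The X chromosome was at -0.0039 over 512 genes. The Y chromosome had only 5 tested genes, of which 3 rose and 0 fell, with a median of 0.972. On chromosome 8, 34.6% of genes rose and 10.5% fell, and on chromosome 17 10.7% rose and 33.1% fell. Both shifts ran along the whole chromosome, with medians of 0.104 to 0.179 in the 7 stretches of 20 Mb on chromosome 8 and -0.141 to -0.071 in the 5 on chromosome 17, over genes with a mean of at least 50 counts. Their size varied between WT libraries, as median log2 deviations from the mean over libraries. On chromosome 17, WT replicates 1 to 3 were at 0.072, 0.0060 and 0.094, and the knockout libraries at -0.063 to -0.053. On chromosome 8, they were at -0.055, -0.110 and -0.035, and the knockout libraries at 0.050 to 0.077.

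Fgfr1 and Dusp4 lie on chromosome 8. The log2 fold change of Fgfr1 was thus within 0.015 of the chromosome's median, and that of Dusp4 exceeded it by 0.83. Dusp1, Frs3 and Sos1 lie on chromosome 17, as does Srf, and all 3 fell. Relative to the chromosome's median, their log2 fold changes were -0.57, -0.47 and -0.24. The other 35 genes lie on 14 other chromosomes. Whether the shift of a chromosome adds to these values was not tested, and neither was its source.

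**Figure D4:**
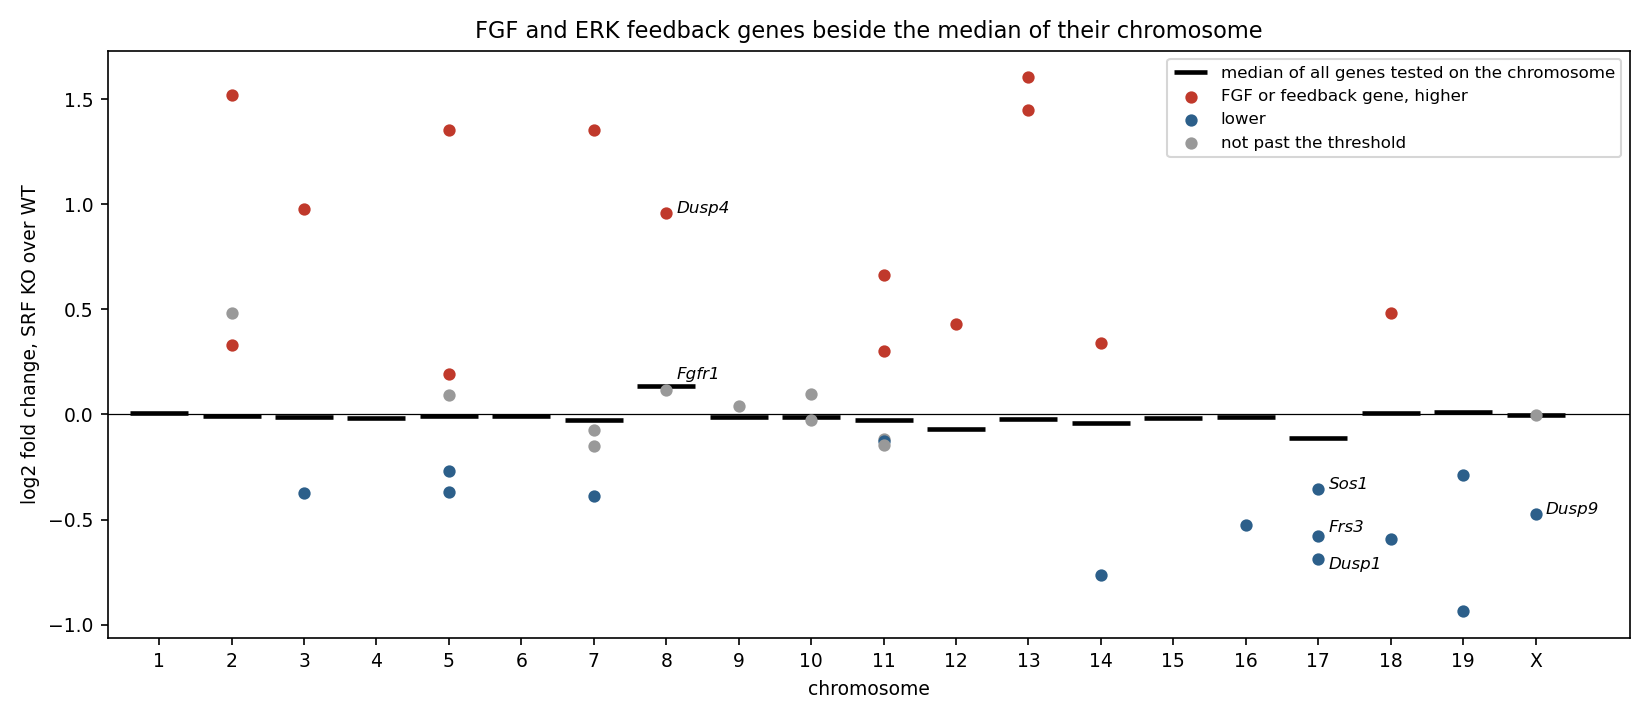
Log2 fold change of SRF KO over WT for the 39 tested genes by chromosome (points; red, rose; blue, fell; grey, not past the threshold), with the median of all tested genes of each chromosome (black lines; chromosome Y is not drawn). Chromosome 8 lies above 0 at 0.134 and chromosome 17 below it at -0.113, and the point of Fgfr1 sits on its chromosome's median.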

How the data were processed

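The authors deposited whole-number counts of reads per gene and per transposable element family, 1 column a library, unnormalized as far as the values show. Per the labels' protocols, total RNA was taken with TRIzol and sequenced as paired ends on an Illumina instrument, and adaptor and poor reads were discarded. The submitters' processing notes name mm10 and DESeq2, with no role. The aligner, counting program, annotation and strand setting are not given in the sources used here, so reads of overlapping genes on opposite strands may not be told apart.

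From the counts, 24421 gene and 1146 transposable element entries were filtered with filterByExpr (minimum count 10), scaled with TMM and fitted in edgeR 4.0.16 under R 4.3.3 with the quasi-likelihood test, with Benjamini-Hochberg adjustment over 15611 entries. SEs are the absolute log2 fold change divided by the root of F. Exon lengths and positions come from GENCODE M21, and promoters from RefSeq. The scripts were tested on simulated data with known changes. Alternatives were DESeq2 1.42.0, other scalings, no filter, gene entries alone, a replicate block and leaving out each library.

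The set, the lists and the rule for naming were chosen with earlier results of these data known. All genes of the set are accounted for. Full values per library are given, per role, for up to 3 genes with the largest changes past the threshold and a mean of at least 50 counts, and for Fgf4, Fgfr1, Fgfr2, Spry4 and Dusp6. From each further pathway list up to 3 genes with the smallest adjusted p are named, except where a result is not reported here. Other genes, Klhl13, Nanog and Dppa3 among them, and the ratios of gene pairs were chosen after their values were seen. Of the lists for other cell types, 2 of 5 tested trophoblast markers fell and none rose, 1 of 4 neural markers rose and 1 fell, and 2 of 4 tested mesoderm markers rose and 1 fell. No 2 replicate libraries agreed within sampling noise (chi-square per degree of freedom of 1.79 to 14.6).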

Additional observations from a re-analysis of the deposited data

How the results depend on the processing

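The 14 rises were 13 to 15 and the 14 falls 9 to 14 under the alternatives of tool, scaling, filter, entries and libraries. With each library left out in turn, the rises were 13 to 15 and the falls 9 to 13, lowest without SRF KO replicate 1, where fewer samples are tested. DESeq2 called 25 of the 28 genes and lost Dusp5 (-0.28), Fgfbp1 (-0.26) and Grb2 (-0.12). An adjusted p of 0.01 gave 14 rises and 9 falls, and 2013 falls over all genes. A log2 fold change of at least 1 gave 5 rises and 0 falls, and 817 and 260 over all genes. Such thresholds lower counts by construction. Genes that never passed reversed in sign under some settings. Fgf13 was at 0.0080 with RLE size factors, 0.035 with total counts and between -0.11 and 0.11 with 1 replicate left out (0.055 without SRF KO replicate 2). Frs2 was at 0.0096 with total counts. With 1 replicate left out, Fgf18 was between -0.25 and 0.079, Dusp7 between -0.015 and 0.088 (-0.0092 without SRF KO replicate 3) and Fgfrl1 between -0.044 and 0.22. The cause was not tested. Receptor shares from counts not divided by length were 77.6%, 9.09%, 5.12% and 8.23% for Fgfr1 to Fgfr4 in SRF KO, and 78.6%, 7.26% and 2.98% for Fgfr1, Fgfr3 and Fgfr4 in WT. The pairing by replicate number was checked by correlating deviations from the group means, which gave 0.0592, 0.328 and 0.183 for numbers 1 to 3. Libraries of unlike number were not correlated, so this check does not settle whether the numbers mark pairs. The main fit did not pair them. A replicate block let 15 genes of the set pass as higher and 14 as lower, with Fgfr1 added (0.12) and Srf at -3.12, and 3659 and 3853 over all genes. Over the 39 genes and 12 alternatives of the fit, 429 single values kept direction and call, 28 were weaker, 2 stronger and 9 reversed. Depth limits Fgf9, Fgf8, Fgf3, Fgf2, Fgf18 and Dusp2, each with under 50 counts on average.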
